A study of Mus musculus with 12 samples.

Results

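Expression of 10 transcription regulators of fat was followed: Pparg, Cebpa, Cebpb and Ebf1 of the adipogenic programme, Ebf2 and Prdm16 of the brown and beige programme, and Ppargc1a, Ppargc1b, Esrra and Tfam of mitochondrial biogenesis. They were taken by symbol, and all 10 were found among 16738 genes of the white fat table and among 15363 genes of the brown fat table. The study deleted NDUFS4, a subunit of respiratory complex I, in adipocytes of C57BL/6 mice. Every group ate a high-fat diet and lived at room temperature. RNA of the inguinal depot (iWAT, subcutaneous white fat of the groin) was sequenced from KO females, WT females, KO males and WT males, with 3 libraries in each group. The sources used here give neither the promoter that drives the deletion, nor the age of the mice, nor how many mice made up a library. The p-values cover variation among libraries, which may be technical. The tables named for brown fat (BAT) hold the same contrast, but the labels list no brown fat library and its groups are not described.

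The one contrast deposited for each depot was the interaction of genotype and sex, that is, the KO effect in females on the log2 scale less that in males. Neither sex's KO effect was analysed on its own here, nor were values per library. An interaction above 0 can therefore come from a higher value in KO females, a lower value in KO males, or a difference between the WT groups. In whole fat, more cells of a type and more RNA per cell cannot be told apart. Ndufs4 itself had an interaction of 0.89 ± 0.38 in white fat and -0.10 ± 0.14 in brown fat (standard error, adjusted p = 0.169 and 0.946 from limma) per the authors' deposited table. These values compare the sexes and do not check the genotype labels. Markers of the depots lay where the names place them. Ucp1, the uncoupling protein of brown fat, had a mean log2 expression of 4.36 in the white and 12.54 in the brown fat table, and Lep, the hormone of white adipocytes, had 8.91 and 4.31, per the authors' deposited tables.

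Adipocytes form when CEBPB, induced early, switches on PPARG and CEBPA, which then sustain each other and the genes of lipid storage. EBF2 and PRDM16 turn this programme towards the heat-producing brown and beige fates. The coactivators PGC-1alpha and PGC-1beta bind nuclear receptors such as ESRRA and raise the nuclear genes of respiration, while TFAM packs mitochondrial DNA and starts its transcription.

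Windows of 250 bases before annotated starts are shown for 3 of the genes, because the deposited values count each gene as a whole. Pparg has 3 annotated starts among these windows, of which the 5′-most and the 3′-most are printed to show how unlike they are. Esrra and Tfam are printed because both belong to the mitochondrial branch and had interaction estimates of opposite sign in white fat. The sign for Tfam is not settled, as its interval ran from -1.07 to 0.51. The difference between both genes was not tested, nor was any part of the marked motifs in their values. Capitals mark TTGCNNAA, the C/EBP core, in Pparg, GCGCATGC, the core of the NRF-1 motif, in Esrra, and ACTTCCGG, the GABP motif, in Tfam, each on either strand.
Pparg, 5′-most start, chr6:115360894-115361143, plus strand: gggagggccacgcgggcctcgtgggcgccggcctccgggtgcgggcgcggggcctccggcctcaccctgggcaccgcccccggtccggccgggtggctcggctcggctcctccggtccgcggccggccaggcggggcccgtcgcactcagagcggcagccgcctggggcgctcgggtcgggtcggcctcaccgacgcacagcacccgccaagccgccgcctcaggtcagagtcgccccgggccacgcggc
Pparg, 3′-most start, chr6:115421816-115422065, plus strand: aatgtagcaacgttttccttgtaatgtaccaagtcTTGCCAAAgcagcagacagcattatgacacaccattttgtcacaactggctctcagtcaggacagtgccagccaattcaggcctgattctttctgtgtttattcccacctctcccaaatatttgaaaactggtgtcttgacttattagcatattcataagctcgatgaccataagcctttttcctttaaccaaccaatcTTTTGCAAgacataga
Esrra, chr19:6921809-6922058, minus strand: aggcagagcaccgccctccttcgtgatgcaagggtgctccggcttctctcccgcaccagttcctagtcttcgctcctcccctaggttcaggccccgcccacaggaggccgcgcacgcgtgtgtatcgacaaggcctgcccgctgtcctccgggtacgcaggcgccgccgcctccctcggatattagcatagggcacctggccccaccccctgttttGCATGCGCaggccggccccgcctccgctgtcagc
Tfam, chr10:71238045-71238294, minus strand: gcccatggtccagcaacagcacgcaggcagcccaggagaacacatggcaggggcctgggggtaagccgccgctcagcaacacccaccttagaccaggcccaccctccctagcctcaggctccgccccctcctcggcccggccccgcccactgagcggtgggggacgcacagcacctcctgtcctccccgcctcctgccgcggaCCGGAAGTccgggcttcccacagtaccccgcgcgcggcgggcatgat
All are from RefSeq on build GRCm38.p6, an older build than that of the gene coordinates below.

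The 5′-most Pparg window was 82.4% G and C with no C/EBP core, and the 3′-most was 40.8% G and C with a match 215 and another 16 bases before the start. Such a core was in 1 of the 11 windows searched, which cover 8 of the 10 genes (all but Ebf2 and Ppargc1b). It was in 9.56% of 32851 RefSeq windows of the same length. The NRF-1 core stood 34 bases before the Esrra start (2.26% of all windows) and the GABP motif 47 bases before the Tfam start (2.88%), each in 1 of the 11 windows. The EBF core CCCNNGGG had a match in 1 of the 11 windows, 208 bases before the Cebpb start, where it overlaps a GC box, against 11.8% of all windows. The ERR motif TCAAGGTCA and the cyclic AMP element TGACGTCA had none, against 0.387% and 1.55% of all windows. GGGCGG, the GC box, was in 6 of the 11, against 32.7%. These are matches of letters and not measured binding sites, and none of the marked places overlaps another motif searched.

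Did the KO change these regulators differently in females and males? In white fat 9 of the 10 lay above 0, as did 55.9% of all genes, with Tfam as the one below. The members' median was 1.29, against 0.13 over all genes, and 9 also lay above that median of all genes. None of the 10 passed an adjusted p of 0.05 in limma, where 4.75% of all genes did (1.06% above 0 and 3.69% below 0), and 2 had an adjusted p under 0.10, against 12.1%. At an unadjusted p of 0.05, 4 of the 10 passed, which were Pparg, Cebpb, Ebf2 and Esrra, against 24.5% of all genes. The interactions of single regulators in white fat are thus sizes with wide errors, and no gene is called higher or lower. T cell markers lay far below 0 in the same table (12 of 12, median -7.33, 11 called), and B cell markers did likewise (12 of 12, median -8.28, 6 called). Their mean log2 expression was low, from 0.46 to 3.39 for the T cell and from -0.62 to 4.44 for the B cell markers. Skeletal muscle markers (12 of 12, median 3.47) and mammary epithelium markers (8 of 8, median 2.35) lay above 0 with none called, while the 10 adipocyte identity markers had a median of 0.32. The median standard errors of the muscle and mammary markers were wide, 2.73 and 1.98. An unadjusted p of 0.05 was passed by 2 of the 12 and 1 of the 8. Mean log2 expression ran from 1.46 to 6.82 for the muscle and from 1.41 to 3.30 for the mammary markers. The part of any of these marker lists in the regulators' values was not tested.

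**Figure D1:**
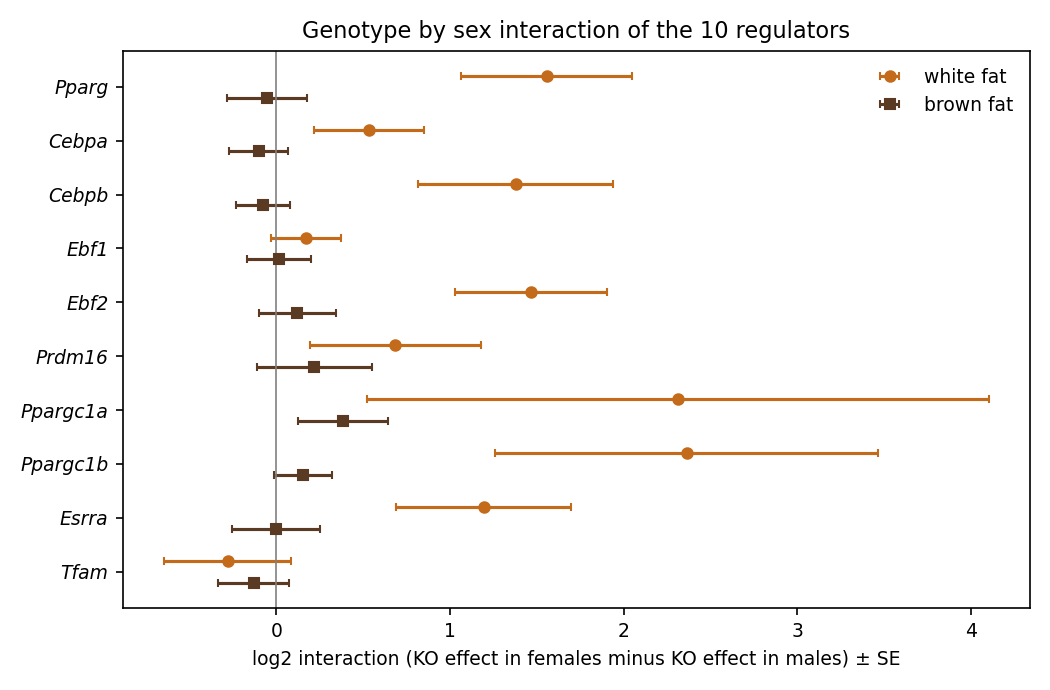
Log2 interaction (x axis, KO effect in females minus KO effect in males) of the 10 regulators in white fat (circles) and brown fat (squares), with standard errors as bars. In white fat 9 points lie above 0, from 0.17 for Ebf1 to 2.36 for Ppargc1b, while the brown fat points lie between -0.13 and 0.38.

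Among Pparg, Cebpa, Cebpb and Ebf1, the nuclear receptor gene Pparg (ENSMUSG00000000440.13, chromosome 6, 115337912 to 115467360, GRCm39) had the largest white fat interaction, 1.56 ± 0.49 (standard error) per the authors' deposited table. Its 95% interval ran from 0.50 to 2.62 and its adjusted p was 0.0773. Of all genes, 3.13% had a higher t. The values do not say which of the Pparg starts shown above carried the difference. Cebpb (chromosome 2, 167530835 to 167532338), the early bZIP factor, was at 1.38 ± 0.56 (adjusted p = 0.152) per the authors' deposited table, with an interval of 0.17 to 2.59. Cebpa (chromosome 7, 34818718 to 34821353), the later bZIP factor that holds the mature state, was at 0.54 ± 0.32 (adjusted p = 0.310) per the authors' deposited table. Its interval of -0.14 to 1.22 includes 0, and the difference between both Cebp genes was not tested.

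Ebf1 and Ebf2 encode related DNA-binding factors of the EBF family, of which EBF2 marks cells that turn brown or beige. Ebf2 (chromosome 14, 67470741 to 67668367) was at 1.47 ± 0.44 per the authors' deposited table, with an interval of 0.53 to 2.41. Its adjusted p of 0.0649 was the smallest of the 10, and 2.32% of all genes had a higher t. Ebf1 (chromosome 11, 44508144 to 44898918), which acts in adipocytes of both kinds, was at 0.17 ± 0.20 (adjusted p = 0.623) per the authors' deposited table. Its interval of -0.26 to 0.60 was the narrowest of the 10, and the estimate of 1.47 for Ebf2 lies above it, with no test of the difference between both genes. Relative to the median of all genes Ebf1 was at 0.04. Prdm16 (chromosome 4, 154400582 to 154721330), the coregulator that holds brown identity, was at 0.69 ± 0.49 (interval -0.37 to 1.74, adjusted p = 0.402) per the authors' deposited table.

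Of the 10 regulators the coactivator genes had the largest estimates and the widest errors in white fat. Ppargc1b (chromosome 18, 61431207 to 61533502), which encodes PGC-1beta, was at 2.36 ± 1.10 (adjusted p = 0.206) per the authors' deposited table, with an interval of -0.01 to 4.74. Ppargc1a (chromosome 5, 51611592 to 51725068), which encodes the cold- and exercise-induced PGC-1alpha, was at 2.31 ± 1.79 (adjusted p = 0.441) per the authors' deposited table, with an interval of -1.54 to 6.16. Of the genes whose mean log2 expression was within 0.5 of theirs, 99.3% had a smaller standard error than either gene. At these errors an interaction of 6.68 for Ppargc1a and 4.12 for Ppargc1b would have been needed to reach a t of 3.74, the smallest among called genes per the authors' deposited table. Esrra (chromosome 19, 6888345 to 6899208), the orphan receptor through which PGC-1 proteins act, had a tighter estimate of 1.20 ± 0.50 (interval 0.11 to 2.28, adjusted p = 0.165) per the authors' deposited table.

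Tfam (chromosome 10, 71061294 to 71074110) stood apart in sign, at -0.28 ± 0.37 (adjusted p = 0.666) per the authors' deposited table. Its interval ran from -1.07 to 0.51, and 70.4% of all genes had a higher t. The upper end of that interval is under the estimates of all the other regulators except Ebf1. This leaves out the errors of those estimates, and differences between genes were not tested. The mitochondria-encoded mRNAs, which are read from the DNA that TFAM packs, lay above 0 in 12 of 12 cases with a median of 1.61, none called and 6 at an unadjusted p of 0.05, against 24.5% of all genes. Their mean log2 expression ran from -1.22 to 12.46. The 7 of the 12 with a level of at least log2 of 10, a minimum chosen for them after their values were seen, had a median of 1.12 and interactions from 0.40 to 1.79. The other 5, at levels of 0.62 or lower, had a median of 2.13. Among all 12 the smallest p belonged to mt-Nd5 and mt-Nd2, both subunits of complex I and both of the 7, at 1.79 ± 0.56 and 1.12 ± 0.37 (adjusted p = 0.0726 and 0.0900) per the authors' deposited table.

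**Figure D2:**
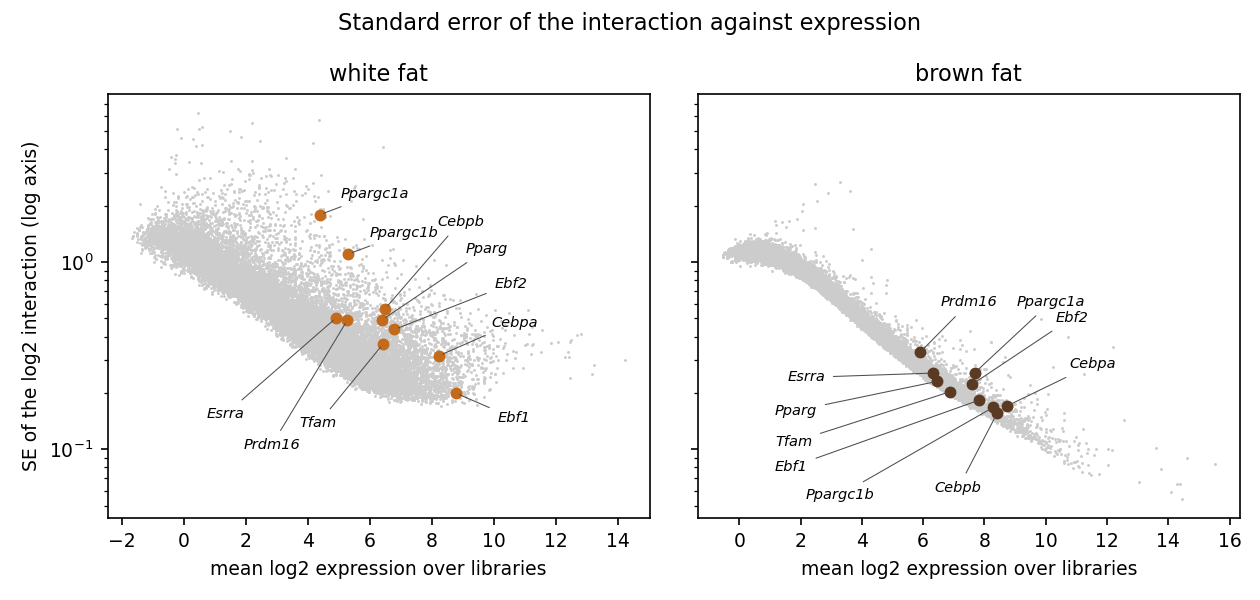
Standard error of the log2 interaction (y axis, log scale) against mean log2 expression (x axis) for all genes (grey) and the 10 regulators (coloured, named), with white fat on the left and brown fat on the right. In white fat Ppargc1a (1.79) and Ppargc1b (1.10) sit at the upper edge of the cloud and Ebf1 (0.20) at its lower edge, while the brown fat errors of the 10 run from 0.16 to 0.33.

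In white fat 9 of the 10 regulators had a standard error above the median of genes of like expression, Ebf1 being the exception with 9.29% of such genes below it. In brown fat 7 of the 10 did. For each of the 10 the error was larger in white fat, by the least for Ebf1, with 0.20 in white and 0.18 in brown fat. Over all genes of a table the median error was 0.51 in white and 0.59 in brown fat. Each regulator but Ebf1 also had a lower mean log2 expression in white fat. The part of expression level in these errors was not tested, and the share of all genes with a larger error in white fat was not counted.

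In brown fat the same contrast lay close to 0 for all 10. Of these, 5 were above 0, against 51.0% of all genes, and 5 below, with a median of 0.01, against 0.01 over all genes. None passed the adjusted p, against 0.0130% of all genes, and none passed an unadjusted p of 0.05, against 6.51%. Ppargc1a had the largest value, 0.38 ± 0.26 (adjusted p = 0.841) per the authors' deposited table, with an interval of -0.14 to 0.91. Prdm16 followed with 0.22 ± 0.33 (interval -0.45 to 0.89), Ppargc1b with 0.16 ± 0.17 (interval -0.18 to 0.50) and Ebf2 with 0.12 ± 0.22 (interval -0.33 to 0.58) per the authors' deposited table. Pparg was at -0.05 ± 0.23 (interval -0.52 to 0.42) and Esrra at -0.00086 ± 0.26 (interval -0.52 to 0.52) per the authors' deposited table. Cebpa, Cebpb, Ebf1 and Tfam were at -0.10 ± 0.17, -0.08 ± 0.16, 0.02 ± 0.18 and -0.13 ± 0.20 per the authors' deposited table. T cell markers were in the brown fat table for 4 of 12 genes and B cell markers for 7 of 12. Skeletal muscle markers lay below 0 in 11 of 12 cases (median -3.40, median standard error 1.78, none called). Of these 12, 4 passed an unadjusted p of 0.05. The part of any of these markers in the brown fat values was not tested.

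The difference between depots was tested for each of the 10 regulators, as the white fat interaction minus the brown fat interaction, with p adjusted over 14502 shared genes. It was above 0 for 9 of the 10, against 58.4% of shared genes, with a median of 1.27 against 0.20. None passed the adjusted p, against 0.248% of shared genes, and 4 passed an unadjusted p of 0.05, against 15.7%. For Pparg the difference was 1.61 ± 0.54 (interval 0.47 to 2.74, adjusted p = 0.166), and for Ebf2 it was 1.34 ± 0.49 (interval 0.32 to 2.36, adjusted p = 0.191). Both passed only when the errors of the tables were given a correlation of 0.5 (adjusted p = 0.0176 and 0.0227), a setting that called 2001 genes in place of 36. Whether the same mice gave both depots is not stated in the labels. Cebpb differed by 1.46 ± 0.58 (interval 0.22 to 2.69, adjusted p = 0.245) and Esrra by 1.20 ± 0.56 (interval 0.02 to 2.37, adjusted p = 0.307). Differences of the PGC-1 genes were 2.21 ± 1.12 for Ppargc1b and 1.93 ± 1.81 for Ppargc1a (adjusted p = 0.360 and 0.642). For Cebpa, Prdm16, Ebf1 and Tfam they were 0.64 ± 0.36, 0.47 ± 0.59, 0.15 ± 0.27 and -0.15 ± 0.42, each with an interval that includes 0.

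Mean log2 expression over all libraries of a table gives the level of each regulator by depot. How the tables were normalised is not given and no spread of these means was computed, so the levels are set side by side without a test. They are not per gene length, so no order between genes is given. Over shared genes the white fat mean minus the brown fat mean had a median of 0.60. Ppargc1a was at 4.38 in white and 7.69 in brown fat per the authors' deposited tables, a difference of -3.31, and 0.490% of shared genes had a lower difference. Ppargc1b was at 5.30 in white and 8.29 in brown fat per the authors' deposited tables, a difference of -2.98, with 0.724% of genes lower. Cebpb had 6.48 in white and 8.42 in brown fat, and Esrra had 4.91 in white and 6.32 in brown fat, per the authors' deposited tables (differences of -1.94 and -1.41). The PGC-1 genes thus showed the widest gaps between depots of the 10, towards brown fat.

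Smaller gaps were found for the others. Ebf2 had 6.79 in white and 7.61 in brown fat, Prdm16 had 5.27 in white and 5.90 in brown fat, and Cebpa had 8.22 in white and 8.74 in brown fat, per the authors' deposited tables. Tfam had 6.42 in white and 6.88 in brown fat, and Pparg 6.40 in white and 6.46 in brown fat, per the authors' deposited tables. Ebf1 was the one member with the higher mean in white fat, 8.76 against 7.83 in brown fat per the authors' deposited tables, a difference of 0.93. It was also the one that stayed above 0 (0.33) once the median difference of shared genes was taken off, while Pparg was then at -0.66.

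**Figure D3:**
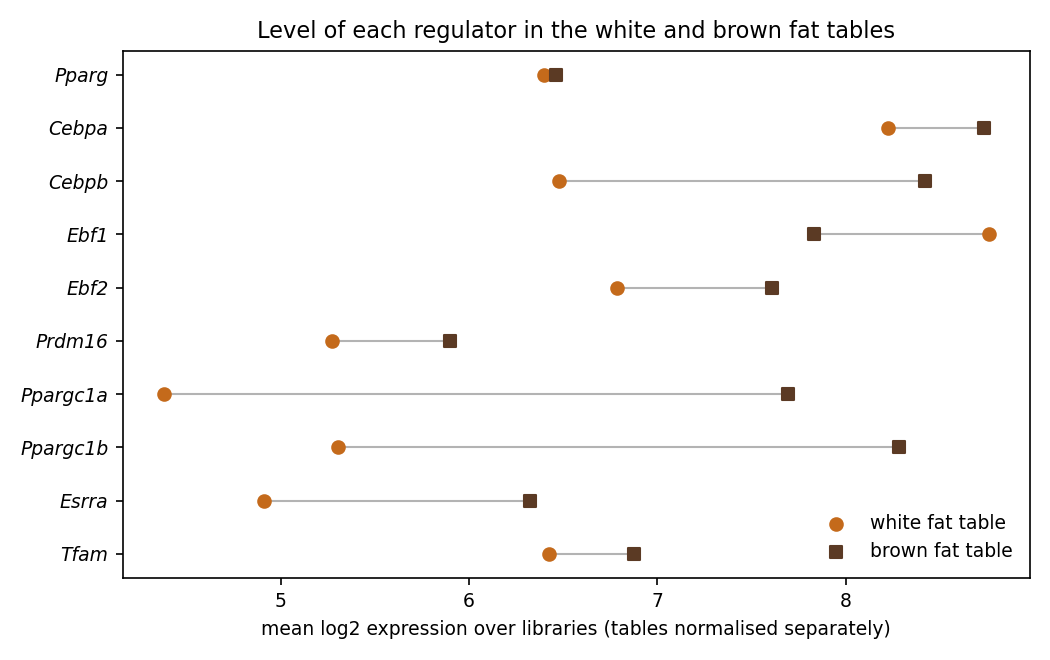
Mean log2 expression over all libraries (x axis) of each regulator in the white fat table (circles) and the brown fat table (squares), joined by a line for each gene. The longest lines are those of Ppargc1a (4.38 in white, 7.69 in brown fat) and Ppargc1b, and Ebf1 alone has its white fat point on the right.

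Other regulators of the same programmes lay on both sides of 0 in white fat, where 55.9% of all genes lay above 0 and 4.75% were called. Of 24 adipogenic factors and cofactors 15 lay above 0 (median 0.20, range -1.06 to 1.98) and 13 above the median of all genes, with none called and 4 at an unadjusted p of 0.05, against 24.5% of all genes. Those with the smallest p were Ebf3, another EBF gene, at 1.23 ± 0.35, and Gata2, which restrains adipogenesis, at 1.82 ± 0.54 (adjusted p = 0.0595 and 0.0633) per the authors' deposited table. Of 23 measured brown and beige regulators 15 lay above 0 (median 0.47) and 7 passed an unadjusted p of 0.05. Among the 23, 1 was called, below 0. This was Tbx1, a T-box factor known as a marker of beige cells, at -4.12 ± 1.08 (adjusted p = 0.0472) per the authors' deposited table, with a mean log2 expression of 0.95 near the low end of the table. Of the other nuclear-encoded regulators of mitochondrial biogenesis 10 of 18 lay above 0 and 9 above the median of all genes (median 0.15), with none called. An unadjusted p of 0.05 was passed by 2 of the 18. The smallest p belonged to Prkaa2 and Prkaa1, which encode the catalytic subunits of the energy sensor AMPK, at 1.35 ± 0.38 and 0.57 ± 0.26 (adjusted p = 0.0559 and 0.187) per the authors' deposited table. For the proteins that copy, pack and transcribe mitochondrial DNA, 13 of 17 lay above 0 (median 0.87, none called). Of the 17, 4 passed an unadjusted p of 0.05. Mrpl12, a ribosomal protein that also binds the mitochondrial RNA polymerase, was at 1.32 ± 0.45, and Mgme1, an exonuclease of mitochondrial DNA, at 1.40 ± 0.60 (adjusted p = 0.0983 and 0.170) per the authors' deposited table.

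Of genes known as targets of these regulators, 2 lists were followed, both chosen with earlier results of these data known. The share of all genes above 0 was 55.9% in white and 51.0% in brown fat, and the share called was 4.75% and 0.0130%. All 21 measured targets of PGC-1 and ESRRA in energy metabolism were above 0 in white fat, with a median of 1.47, and 19 had an unadjusted p under 0.05, against 24.5% of all genes. Only Idh3a, the catalytic subunit of the NAD-dependent isocitrate dehydrogenase, was called among them, at 2.30 ± 0.53 (adjusted p = 0.0361) per the authors' deposited table. In brown fat the same 21 were again all above 0, with a median of 0.16, none called and 5 at an unadjusted p of 0.05, against 6.51% of all genes. Targets of PPARG and CEBPA in adipocytes lay above 0 in 22 of 24 cases in white fat, and 20 lay above the median of all genes (median 0.58, none called, 9 at an unadjusted p of 0.05, against 24.5% of all genes). Aqp7, the glycerol channel, and Gpd1, which makes glycerol phosphate, had the smallest p among them, at 1.11 ± 0.32 and 1.41 ± 0.53 (adjusted p = 0.0591 and 0.125) per the authors' deposited table. In brown fat 20 of these 24 lay above 0 (median 0.21, none called, 10 at an unadjusted p of 0.05, against 6.51% of all genes). Brown and beige effector genes lay above 0 in 16 of 17 cases in white fat, with a median of 3.29 and a median standard error of 2.39. At an unadjusted p of 0.05, 3 of the 17 passed, against 24.5% of all genes. They include Tmem26, the 1 gene of the 17 below 0, at -2.94 ± 1.19 (adjusted p = 0.150) per the authors' deposited table. Only Kcnk3, a potassium channel, was called among the 17, at 3.20 ± 0.81 (adjusted p = 0.0438) per the authors' deposited table. The lists share genes, and the lymphocyte, muscle and mammary markers given above stand beside all of them.

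**Figure D4:**
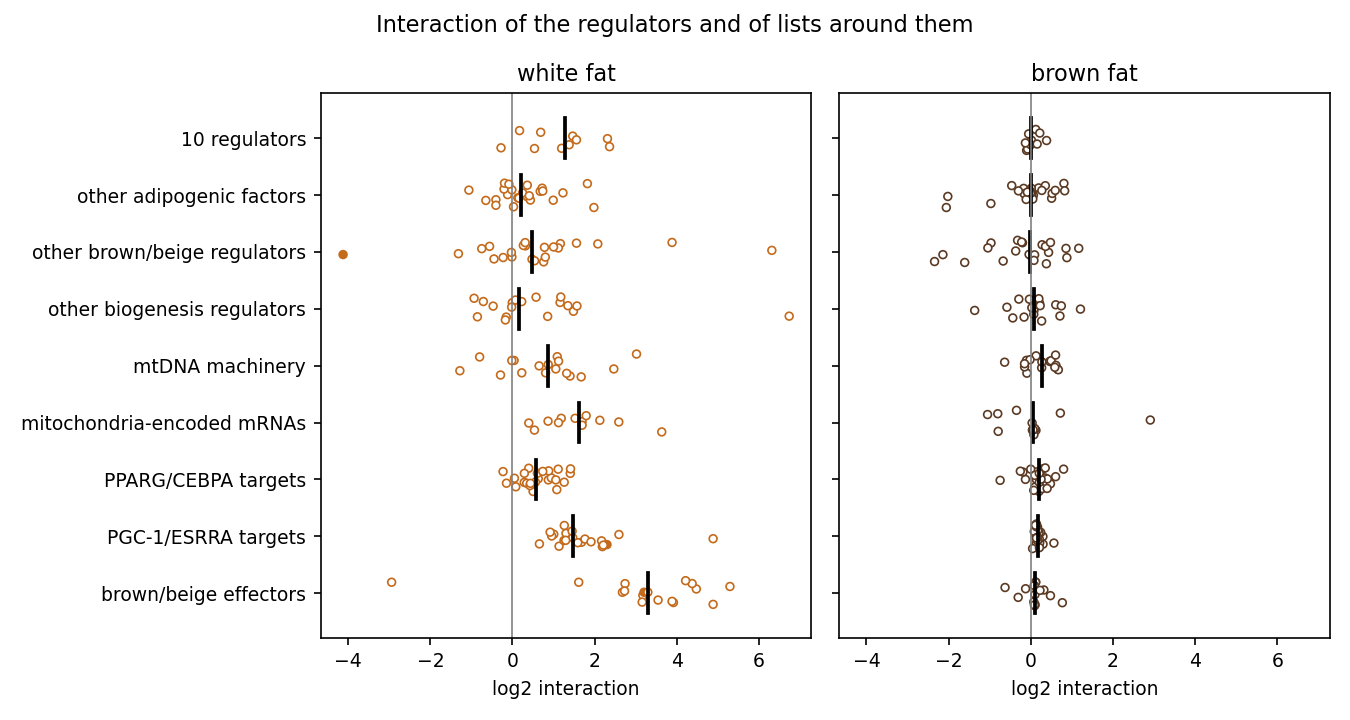
Log2 interaction (x axis) of the 10 regulators and of 8 lists around them in white fat (left) and brown fat (right), with 1 point for each gene, filled where the adjusted p was under 0.05, and a bar at the median of each list. In white fat the medians run from 0.15 for the other biogenesis regulators to 3.29 for the brown and beige effectors, while the medians in brown fat lie between -0.02 and 0.27.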

How the data were processed

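RNA was sequenced from inguinal white fat in 12 libraries, which the labels' titles place in 4 groups of 3. Per the submitters' processing notes, featureCounts and limma were used with the build GRCm39. The sources used here do not give tool versions, aligner, annotation release, normalisation or strand setting. Per the file headers, the authors deposited for each depot the log2 interaction, the mean log2 expression, the moderated t-statistic (a score with no fixed range), and p-values, raw and adjusted. The order of the contrast is read from the tables' names.

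The columns of library values, 48 in the 4 deposited tables, carry names that match no label and were used in no step, so depth, group means and spread over libraries are not reported here. The planned fits that needed them were not made.

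The standard error was computed as the log2 interaction over t. The t and p values gave 13.4 total degrees of freedom for white fat and 33.9 for brown fat, which set the 95% intervals. The deposited adjusted p equalled the Benjamini-Hochberg adjustment over all genes of a table. Depots were compared over 14502 shared genes through a t-statistic, the white fat interaction minus that of brown fat, divided by the combined error (the square root of the sum of both squared errors). Its degrees of freedom followed Welch and Satterthwaite, its p was two-sided, and the tables were taken as independent. That step was tested on simulated data with errors drawn independently for each table, which cannot check whether the tables are independent. All tests are limma's as deposited or this difference, called where the adjusted p was under 0.05. The software was Python 3.11.15 with scipy 1.17.1, numpy 2.4.6, matplotlib 3.10.9 and pandas 2.3.3.

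The 10 members and the 16 gene lists were chosen with earlier results of these data known. All members were named, Ndufs4 as the targeted gene, and from the lists of regulators, targets, effectors and progenitor genes those past the threshold (up to 4 for each table), or otherwise the 2 with the smallest p in white fat. The rule also picks genes from the lists of cell type and adipocyte identity markers, for which counts and medians are given here in place of single genes. Outside the rule, Ucp1 and Lep were named as depot markers, and Nrf1, Gabpa, Twnk and Ppara after their values were seen. Gabpb1, Tmem26, Dpp4, Ly6a and Pi16 were also named with their values known. Promoter sequences are those of RefSeq on GRCm38.p6, matched by symbol. The members' windows on chromosome 18, where Ppargc1b lies, were left out, and no window was given for Ebf2. Windows of 8 of the 10 members were thus searched.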

Additional observations from a re-analysis of the deposited data

How the results depend on the processing

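Of 120 values, each regulator's interaction in both depots and its difference between depots under each alternative, 116 kept their side of the threshold. Values relative to the median of all genes are the one alternative that changes an estimate of a regulator, and under it none changed sign. The others leave the estimates as they are and bear on the p or the threshold only: a threshold of 0.10, a minimum for the mean log2 expression (log2 of 10), only genes in both tables, an error correlation of 0.5 between depots, and the smaller degrees of freedom. A threshold of 0.10 called 2 regulators in white fat, Pparg (1.56, adjusted p = 0.0773) and Ebf2 (1.47, adjusted p = 0.0649), beside 2027 genes in place of 795. Restriction to shared genes called 420 genes in white fat and none of the 10. The error correlation called 2 regulators in the difference between depots, again Pparg (1.61) and Ebf2 (1.34). The count of shared genes called was 36, against 2001 with that correlation, 0 with the smaller degrees of freedom and 58 relative to the medians. Across the alternatives the adjusted p in white fat ranged from 0.0695 to 0.1002 for Pparg and from 0.0596 to 0.0850 for Ebf2. Chosen after seeing the data, a minimum level for the mitochondria-encoded mRNAs moved their median in white fat to 1.12, against 1.61 without it.

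No paired analysis was possible because the library columns carry no replicate number and match no sample label. Leaving out each replicate in turn was not run for the same reason. Depth is unknown, so precision rests on the authors' standard errors, which limit the PGC-1 genes in white fat most.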

Other observations

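Genes of preadipocytes and progenitors, the cells that Ebf2 and Cebpb act in early, had no common side in white fat, with 8 of 14 above 0 (median 0.27), none called and 5 at an unadjusted p of 0.05, against 24.5% of all genes. Those with the smallest p lay below 0, Cd55, a complement regulator found on early progenitors, at -1.36 ± 0.42, and Icam1, an adhesion molecule of preadipocytes, at -1.53 ± 0.54 (adjusted p = 0.0738 and 0.105) per the authors' deposited table. Of the 5, Dpp4 (-1.24 ± 0.52) and Ly6a (-0.56 ± 0.25) also lay below 0, and Pi16 (1.38 ± 0.52) lay above it, per the authors' deposited table. In brown fat 4 of these 14 lay above 0, with a median of -0.31. Macrophage markers lay below 0 in 9 of 12 cases in white fat (median -0.23) and in 9 of 12 cases in brown fat (median -0.83), none called. Endothelial markers lay above 0 in 9 of 10 cases in white fat (median 0.55) and in 6 of 10 cases in brown fat (median 0.18), none called. Of all genes, 55.9% lay above 0 in white and 51.0% in brown fat. At an unadjusted p of 0.05, 0 macrophage markers passed in white and 4 in brown fat. Endothelial markers passed in 3 cases in white and 2 in brown fat, against 24.5% and 6.51% of all genes.

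A few values were picked out after they were seen. Nrf1 and Gabpa encode nuclear factors known to act on the human TFAM promoter, and their estimates lay on opposite sides of 0. Nrf1 was at -0.94 ± 0.44 in white fat and -0.58 ± 0.50 in brown fat (adjusted p = 0.213 and 0.887) per the authors' deposited tables. Gabpa was at 0.86 ± 0.50 in white fat and 0.21 ± 0.24 in brown fat (adjusted p = 0.305 and 0.928) per the authors' deposited tables. Gabpb1, which encodes another GABP subunit, lay on the side of Nrf1 in white fat and of Gabpa in brown fat. It was at -0.85 ± 0.47 and 0.27 ± 0.64 (adjusted p = 0.275 and 0.980) per the authors' deposited tables. The Tfam window held the GABP motif and no NRF-1 core. The part of these factors in the Tfam values was not tested. Twnk, the mitochondrial DNA helicase, was at 2.47 ± 1.10 in white fat and 0.60 ± 0.55 in brown fat (adjusted p = 0.187 and 0.899) per the authors' deposited tables. Ppara, the receptor of fatty acid oxidation, was at 3.88 ± 2.39 in white fat and 0.48 ± 0.12 in brown fat (adjusted p = 0.330 and 0.329) per the authors' deposited tables, an error in white fat far wider than in brown fat.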
